A study of Ovis aries with 16 samples.

Results

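The names described here are miRNAs of the imprinted DLK1-DIO3 region, which in humans lies at 14q32 and in sheep is best known as the callipyge locus. They were chosen by number: every row whose number after miR- is one of 45 numbers of that region, whatever the arm or letter. The rule found 43 of the 1105 rows of the table, with 41 different names, and 28 of the 45 numbers had at least 1 row. The other 17 numbers were not analysed here. By arm, 24 rows were 5p, 18 were 3p and 1 (miR-1193) named no arm.

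Small RNAs were sequenced from serum of adolescent sheep with normal two-ventricle hearts, and from vesicles released by cells into it (extracellular vesicles, EVs), which a column had separated by size. The animals received a single-stage Fontan operation, which leads systemic venous blood to the lungs without a pumping ventricle. There were 5 libraries of serum and 5 of EVs before surgery (letters A to E in the titles), and 3 of serum and 3 of EVs after it. The libraries after surgery carry the letters D (day 6), E (day 7) and F (day 7). The libraries before surgery are labelled as controls, and no sham operation is named. The labels do not define the letters, so p-values measure the spread between these samples, part of which may be technical.

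The region is expressed from the maternal chromosome, where long noncoding RNAs carry a long row of miRNA hairpins, while the protein genes DLK1, RTL1 and DIO3 are expressed from the paternal one. A proximal group of hairpins, including miR-127, miR-136, miR-431, miR-432 and miR-433, lies antisense to RTL1, and a distal group runs from miR-379 to miR-410 and miR-656. Their expression is high in embryo, placenta, brain and growing muscle, and in mice blocking miR-329, miR-487b, miR-494 or miR-495 raised the growth of blood vessels after a leg artery was tied. In sheep RefSeq genes (assembly ARS-UI_Ramb_v3.0), 55 of 106 miRNA genes lay between DLK1 and DIO3. A gene of the same number was found there for 39 of the 43 rows, and these rows stood for 29 sheep genes. The rows miR-889-5p, miR-889-3p, miR-770-5p and miR-337-5p had no entry. The names state no species, and the submitters' processing notes list a human build (hg19). No sequence was used here to check that reads of a row come from its sheep hairpin.

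The names of the region were low in every library. Together they took 21658 counts over the 16 libraries, from 561 counts in serum E before surgery to 3177 in EVs C before surgery, and no single row exceeded 769 counts in a library. The median row had a mean of 125 CPM (the part of a library's counts, scaled to a total of 1000000), against 168 CPM for all 1105 names and 185 CPM for the 9 names of the primate chromosome 19 cluster, the other large imprinted miRNA cluster of humans. The 12 highest rows held 63.8% of the counts of the region. Above 0 in all 16 libraries were 10 of the 43 rows (23.3%), against 375 of the 1105 names (33.9%): miR-889-5p, miR-370-3p, miR-432-5p, miR-485-5p, miR-382-5p, miR-409-3p, miR-668-3p, miR-323a-5p, miR-494-3p and miR-127-3p.

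**Figure D1:**
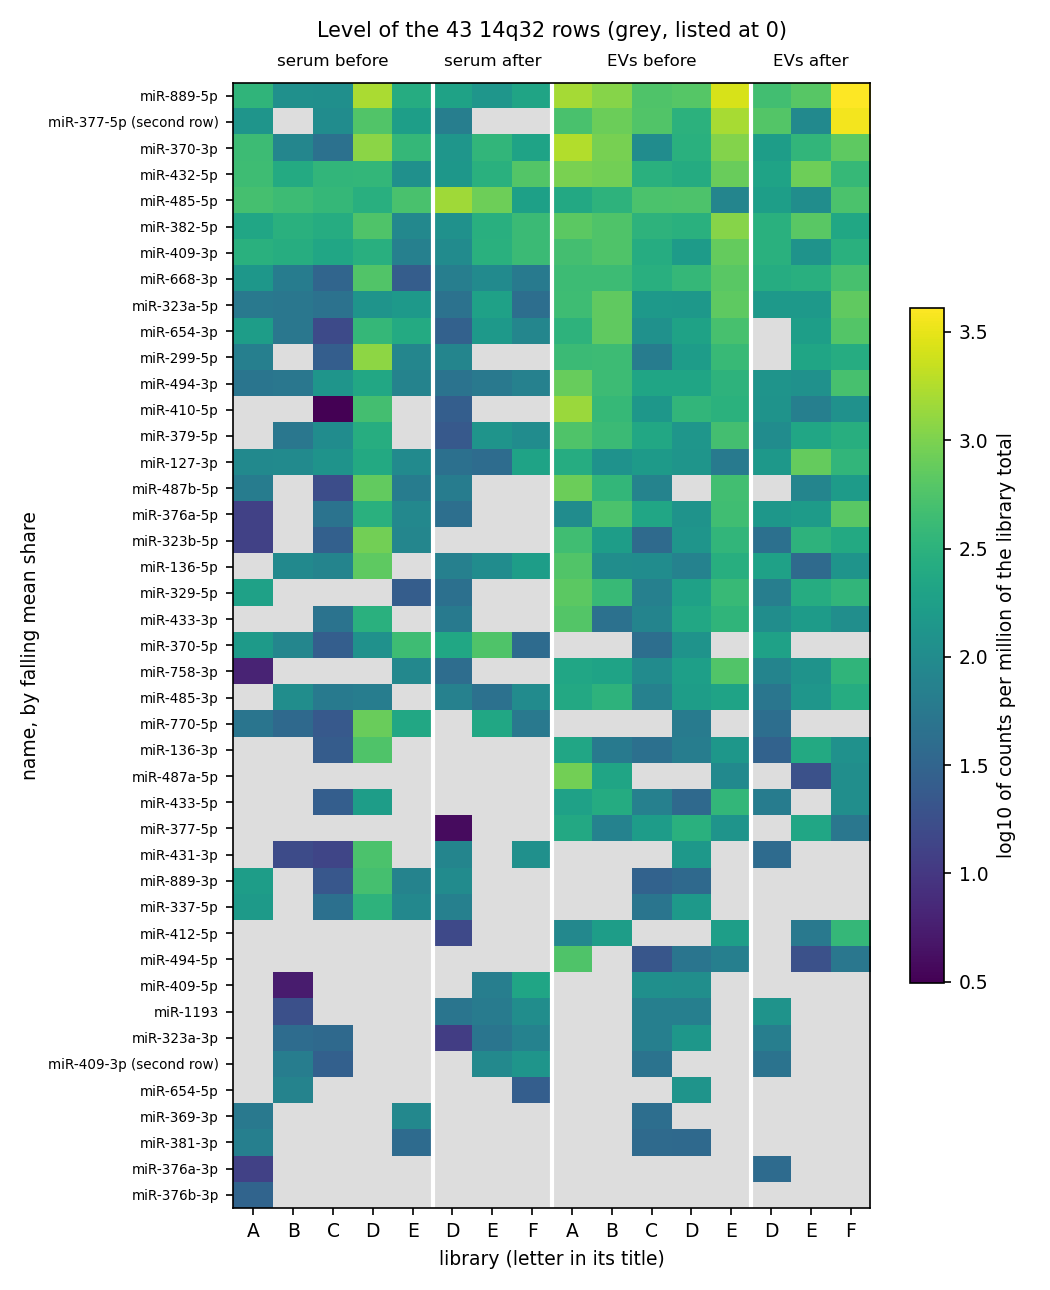
Level of each of the 43 rows (vertical axis, by falling mean share) in each of the 16 libraries (horizontal axis, by group and letter), as log10 of CPM; grey marks a row listed at 0. The upper rows are filled across the 4 groups, and blocks of grey repeat in libraries of 1 compartment, such as miR-370-5p in EVs A, B and E before and E and F after surgery.

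Zeros followed sets of libraries rather than the groups. Serum B before and serum E and F after surgery shared 524 names at 0 (47.4% of all names), among them 21 of the 43 rows (48.8%), and every other row summed to at least 39 counts over these 3 libraries. EVs A, B and E before and E and F after surgery shared 292 names at 0 (26.4%), among them 14 rows (32.6%), and every other row summed to at least 52 counts. The number of rows above 0 ran from 20 in serum E after surgery to 36 in EVs C and D before surgery. A value of 0 is therefore given below as listed at 0; by counting error alone it would allow at most 0.00458% of the counts of any library. Listed at 0 in all 8 serum libraries were miR-487a-5p and miR-494-5p, and miR-376b-3p was at 0 in all EV libraries. EVs A before surgery held 60 of the 95 miR-487a-5p counts and 38 of the 78 miR-494-5p counts. The miR-376b-3p row had 5 counts in all, in serum A before surgery. How many of all names were at 0 throughout a compartment was not counted, so these zeros are not read as a trait of the region.

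The summed share of the region was higher in EV libraries than in most serum libraries. In serum before surgery it was 0.392%, 0.237%, 0.248%, 1.44% and 0.360% of counts in libraries A to E (mean 0.536% ± 0.511, SD, n = 5), and after surgery it was 0.356%, 0.407% and 0.362% in D to F (0.375% ± 0.028, n = 3). In EVs it was 1.67%, 1.17%, 0.560%, 0.675% and 1.55% before surgery (1.13% ± 0.502, n = 5) and 0.445%, 0.664% and 1.63% after it (0.912% ± 0.629, n = 3). Serum D before surgery stood far above the other serum libraries and within the EV range, and the groups before and after surgery overlapped in both compartments. Without serum D the mean before surgery was 0.309% ± 0.0784 (n = 4), below that after it. The widest Wilson 95% interval of such a share reached 0.0965 percentage points from the share, which is counting error alone and takes PCR copies as separate molecules. No test was made of this sum, and release from fewer cells and less release per cell cannot be told apart in serum or EVs.

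Library depth moved with that share. The 5 libraries under 100000 counts, which were serum D and EVs A, B and E before surgery and EVs F after it, had summed shares of 1.17% to 1.67%, and the 11 deeper libraries had 0.237% to 0.675%. Totals differed by up to 9.75-fold between libraries but the summed counts of the region by up to 5.66-fold. Among the deeper libraries alone, the 4 EV libraries had 0.445% to 0.675% and the 7 serum libraries 0.237% to 0.407%. The same held for other low names: the 967 names outside the region with a mean level between its lowest and highest row took 27.6% to 44.0% of counts in the 5 shallow libraries and 5.45% to 25.4% in the others. As a share of all counts within that level range, the region took 3.67% ± 0.460 in serum before (n = 5), 4.28% ± 0.936 in serum after (n = 3), 3.63% ± 0.610 in EVs before (n = 5) and 3.97% ± 0.868 in EVs after surgery (n = 3). On this scale the 4 groups overlapped and serum D before surgery (3.38%) lay among the other serum libraries. The boundary of 100000 counts and the level range were set after the values were seen.

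**Figure D2:**
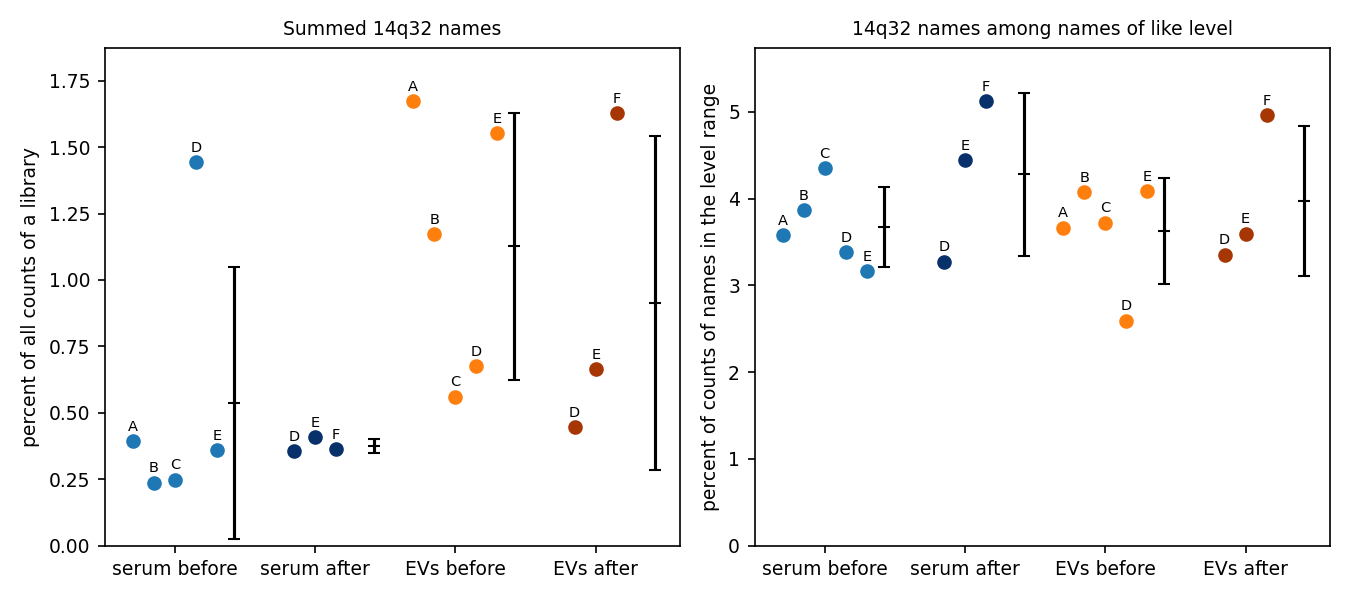
Summed names of the region per library, as percent of all counts (left panel) and as percent of the counts of names in the same level range (right panel), by group (horizontal axis); letters name the library and bars are mean ± SD (n = 5, 3, 5 and 3). On the left serum D before and EVs F after surgery stand above most libraries; on the right all libraries lie between 2.59% and 5.12%.

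**Figure D3:**
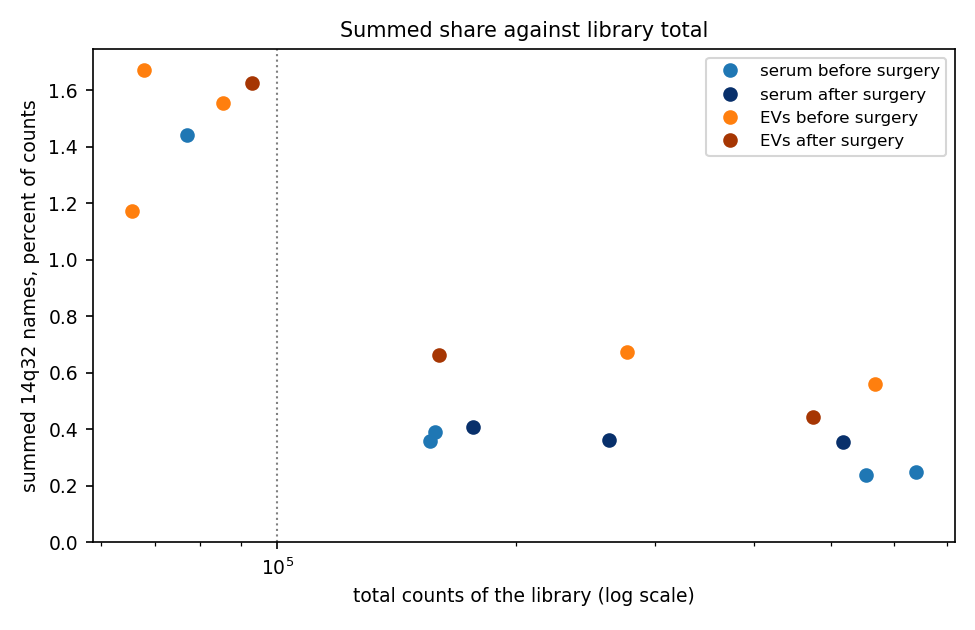
Summed share of the region (percent of counts, vertical axis) against the library total (log scale, horizontal axis) for 16 libraries coloured by group; the dotted line is at 100000 counts. The 5 libraries left of the line lie between 1.17% and 1.67% and the 11 right of it between 0.237% and 0.675%.

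Single rows differed in how their counts followed depth in EVs. The mean total of the 4 deeper EV libraries was 4.74 times that of the 4 shallower ones. Mean counts of miR-485-5p were 5.94 times and those of miR-127-3p 4.91 times as high in the deeper libraries. For miR-889-5p the ratio was 1.03, for miR-323a-5p 1.104, for miR-299-5p 1.01 and for miR-370-3p 0.815, so these names had about as many counts in shallow as in deep libraries. Over the 29 rows with counts in the shallower EV libraries the median ratio was 1.59, and over 784 other names it was 1.65.

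miR-889-5p, named for a hairpin of the distal group that had no sheep gene entry, was the highest row and ranked number 93 of all names by mean share. It had 54, 63, 71, 125 and 41 counts in serum before surgery, 101, 24 and 54 in serum after, 105, 72, 318, 170 and 225 in EVs before and 220, 101 and 380 in EVs after it. Its mean CPM was 491 ± 641 before and 179 ± 37.8 after surgery in serum, and 1291 ± 851 before and 1730 ± 2049 after it in EVs (SD, n = 5, 3, 5 and 3). Without serum D its mean before surgery was 207.5 ± 114 CPM (n = 4). EVs F after surgery were highest with 4094 CPM and serum C before surgery lowest with 111 CPM, and serum D before surgery with 1624 CPM lay above 6 of the 8 EV libraries. The names outside the region whose levels followed it most closely were miR-8072, miR-6767-5p and miR-4745-3p (Spearman's rho 0.959 each over 16 libraries that share differences in depth).

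The name miR-377-5p, also of the distal group, had 2 rows with different counts. The second row is one of 5 rows that follow the block of piRNA names at the end of the table, with the second row of miR-409-3p, the single miR-654-5p row, miR-3957-5p and 1 piRNA name. miR-3957-5p is outside the rule and is named here with its values known. Its sheep gene lies between MIR541 and MIR409 in the region, and it had 4 counts in serum E before surgery and 0 elsewhere. The second miR-377-5p row was the second highest of the region, with 21, 0, 65, 45 and 27 counts in serum before, 35, 0 and 0 in serum after, 35, 53, 328, 86 and 138 in EVs before and 286, 15 and 335 in EVs after surgery. No serum library before surgery had a count in the first row (0 in each of 5), and those after it had 2, 0 and 0. In EVs that first row had 16, 5, 93, 82 and 11 counts before and 0, 35 and 5 after surgery. Both rows had more counts in EVs in sum, but the second was above 0 in 5 serum libraries and the first in 1.

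The proximal group as summed here holds the rows antisense to RTL1 and also miR-770-5p, whose hairpin lies in an intron of MEG3. Its highest row was miR-432-5p. It had 69, 138, 225, 28 and 18 counts in serum before and 72, 53 and 157 after surgery, and 66, 58, 167, 71 and 67 counts in EVs before it. In EVs after surgery its level was 198, 850 and 388 CPM in D to F, a mean of 479 ± 335, against 638 ± 338 CPM before it. In serum the means were 304 ± 124 CPM before and 346 ± 233 CPM after surgery, so the 4 groups overlapped. miR-127-3p, which in mouse can direct cleavage of the RTL1 transcript, had 15, 53, 80, 19 and 15 counts in serum before and 23, 7 and 52 after surgery. Its counts in EVs were 18, 8, 88, 37 and 5 before and 69, 120 and 33 after surgery, and EVs E after surgery was the highest of all 16 libraries. As shares of counts, the proximal group made up 0.1301% ± 0.151 of serum libraries before surgery and 0.0758% ± 0.0347 after it, and 0.165% ± 0.0795 and 0.135% ± 0.0629 of EV libraries. The distal group from miR-379 to miR-656 made up 0.347% ± 0.318 of serum libraries before and 0.249% ± 0.0247 after surgery, and 0.874% ± 0.371 and 0.730% ± 0.615 of EV libraries. Serum D held 0.4001% for the proximal group, and without it the means before surgery were 0.0626% ± 0.0132 and, for the distal group, 0.206% ± 0.0450 (SD, n = 4), both below the means after surgery. Which of the serum groups was the higher thus rested on that library.

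miR-370, which lies between the groups, was counted on both arms. miR-370-3p had 67, 47, 29, 91 and 58 counts in serum before and 70, 63 and 53 after surgery. In EVs it had 123, 62, 59, 82 and 92 counts before and 81, 56 and 64 after surgery. As library totals differed, its level ran from 45.4 CPM in serum C to 1812 CPM in EVs A, both before surgery. miR-370-5p had 25, 47, 17, 9 and 68 counts in serum before and 118, 99 and 10 after surgery. In EVs it had 24 and 35 counts in C and D before and 90 in D after surgery and was listed at 0 in the other 5 libraries, which are those that share their zeros.

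miR-485-5p, of the distal group, was the row with the most counts. It had 78, 240, 238, 22 and 81 counts in serum before surgery and 769, 147 and 48 after it. In EVs it had 16, 21, 307, 151 and 7 counts before and 83, 17 and 50 after surgery. Its mean CPM was 421 ± 94.7 before and 833 ± 651 after surgery in serum, and 345 ± 200 before and 273 ± 232 after it in EVs. Serum D and E after surgery, at 1485 and 832 CPM, were above all other libraries, while serum F after surgery had 183 CPM. miR-382-5p had 289 ± 176 CPM before and 273 ± 148 CPM after surgery in serum, and 598 ± 334 and 391 ± 227 CPM in EVs. The first miR-409-3p row had 229 ± 94.1, 271 ± 162, 446 ± 234 and 242 ± 101 CPM in the same order. For both names the 4 groups overlapped.

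Both arms had rows for 10 hairpins, with miR-409-3p taken from its first row. More 5p than 3p counts were summed over the 16 libraries for 5 of them: miR-376a (96.1% 5p), miR-889 (92.6%), miR-485 (85.4%), miR-323a (75.8%) and miR-136 (72.2%). The 3p arm was the higher for miR-494 (11.1% 5p), miR-409 (12.9%), miR-654 (14.4%), miR-370 (33.1%) and miR-433 (34.1%). miR-889 had more 5p than 3p counts in all 16 libraries, and miR-409 and miR-494 never did. For miR-376a, of a family edited from A to I in brain, miR-376a-3p had 20 counts in all against 486 for miR-376a-5p. With at least 10 counts over both arms in every library, only miR-370, miR-409, miR-485 and miR-889 remained, and 2 of these 4 had more 5p counts.

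The arm counted differed between serum and EVs for some hairpins, as a description without a test. The 5p arm of miR-370 made up 45.1% of its counts in serum and 19.4% in EVs, and the 5p arm of miR-494 0% and 15.8%, or 9.90% without EVs A before surgery, which held 38 of its 78 counts. That of miR-485 made up 90.3% and 75.2%, and that of miR-889 78.9% and 98.3%. In single libraries the miR-485 value ran from 64.9% to 100% in serum and from 29.2% to 88.0% in EVs. The 5p arm of miR-370 was at 0 in the 5 EV libraries that share zeros and 28.9%, 29.9% and 52.6% in the other 3, so the pooled value depends on which libraries share zeros. The miR-889-3p row was also listed at 0 in those 5 EV libraries. In serum it was at 0 in B before and E and F after surgery, which share zeros as well.

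**Figure D4:**
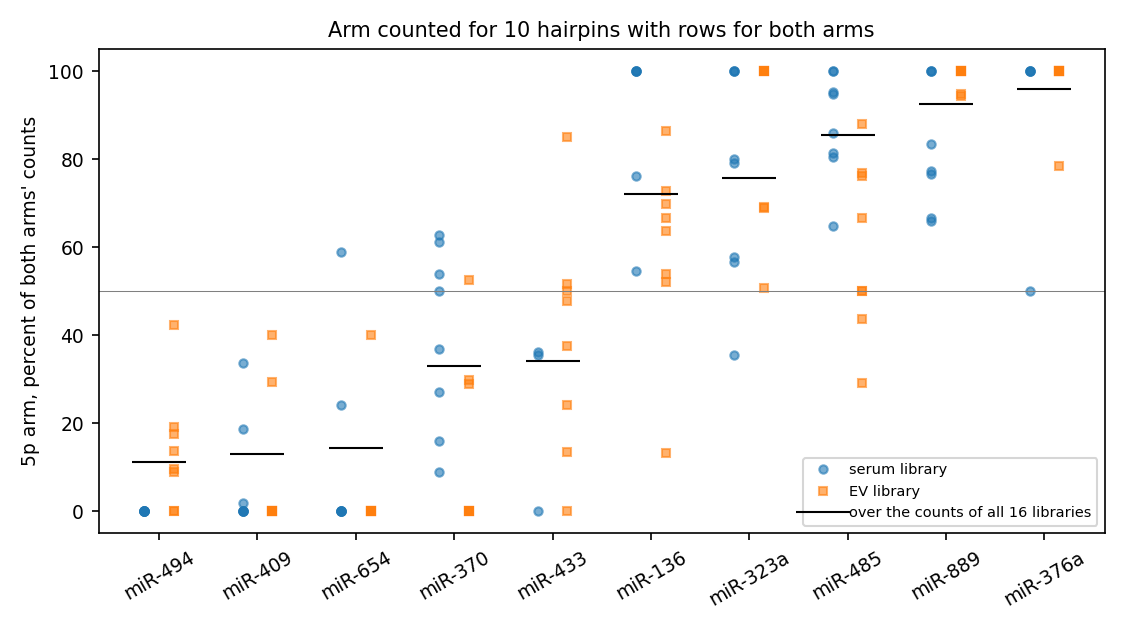
The 5p arm as percent of the counts of both arms (vertical axis) for 10 hairpins, in serum libraries (circles) and EV libraries (squares); black marks give the value over the counts of all 16 libraries. miR-494 and miR-409 stay below 50% in every library and miR-889 above it.

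In serum, no name of the region passed the test after against before surgery. Of 26 tested rows, 0 passed an adjusted p of 0.05 (edgeR, smallest adjusted p = 0.872), where 0 of 696 names did (0%). At an unadjusted p under 0.05 it was 0 rows against 54 names (7.76%), and DESeq2 and limma-voom called 0 rows as well. By sign, 13 rows were higher and 13 lower after surgery, with a median log2 fold change of −0.029 against −0.20 for all names. Under library totals the median of all names was −0.93 and that of the region −0.88. miR-1193 had the smallest p, with 10 counts in B and 0 in the other 4 libraries before surgery and 26, 11 and 28 after it (log2 fold change 3.87, SE 2.13). Its groups did not overlap in CPM, but how many of all names had groups without overlap was not counted. The 4 libraries at 0 belong to 2 sets that share their zeros. Serum B before surgery shares its zeros with serum E and F after surgery. miR-485-5p had 1.098 (SE 0.776) and miR-370-5p 1.03 (SE 0.805). Without serum D after surgery miR-485-5p had 0.0729, and without serum E after surgery miR-370-5p had 0.307. Of values below 0, those of smallest p were the second miR-377-5p row (−2.004, SE 1.60), miR-299-5p (−1.48, SE 1.74) and miR-494-3p (−0.63, SE 0.920). miR-889-5p had −0.34 (SE 0.544), miR-370-3p 0.054 (SE 0.587; −0.92 under library totals) and miR-432-5p 0.26 (SE 0.728).

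Nor did any name of the region pass it in EVs. Of 28 tested rows, 0 passed (edgeR, smallest adjusted p = 0.999), where 0 of 856 names did (0%), and DESeq2 and limma-voom called 0 rows. At an unadjusted p under 0.05 it was 1 row, miR-127-3p, against 15 names (1.75%). miR-127-3p had 417 ± 307 CPM after (n = 3) and 147 ± 75.3 CPM before surgery (n = 5), a log2 fold change of 1.80 (SE 0.661). Without EVs E after surgery, at 749.6 CPM, the log2 fold change was 0.95. Its groups overlapped, since EVs D after surgery with 146 CPM lay below EVs A before surgery with 265 CPM. miR-410-5p, an arm of a distal hairpin, had 95, 25, 80, 98 and 26 counts before and 60, 11 and 11 after surgery (−1.34, SE 0.633). The other named rows were the second miR-377-5p row (1.06, SE 0.846), miR-889-5p (0.71, SE 0.641), miR-432-5p (0.23, SE 0.542; −0.42 under library totals), miR-370-3p (−0.39, SE 0.582), miR-487b-5p (−1.62, SE 1.48) and miR-487a-5p (−1.97, SE 2.22). Of the 28 rows, 12 were higher and 16 lower, with a median log2 fold change of −0.035 against −0.017 for all names. Under library totals these medians were −0.57 and −0.55.

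**Figure D5:**
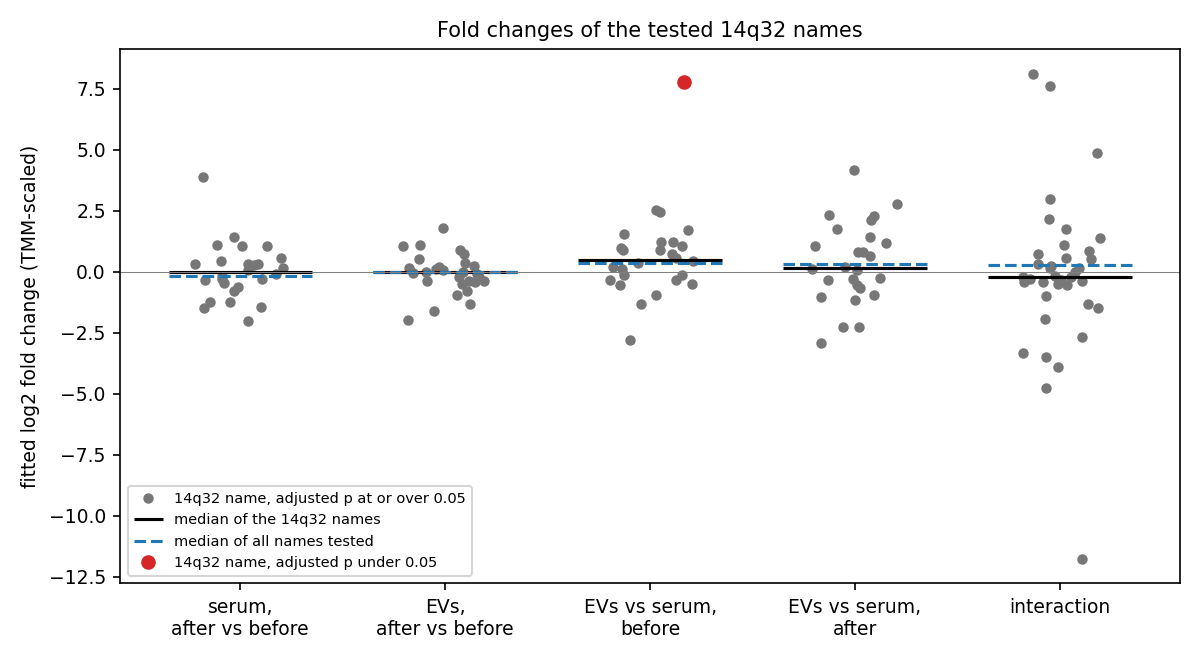
Fitted log2 fold change (vertical axis, TMM-scaled) of each tested row of the region in 5 comparisons; black lines are the medians of the region and dashed lines those of all names tested. The 1 red point is the first miR-377-5p row (7.78), with no count in serum before surgery; such values, and that of miR-409-5p in the interaction (−11.77), rest on groups at 0 and are no measured size.

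Before surgery, 1 row of the region was called between EVs and serum, but not its name with both rows summed. The first miR-377-5p row was higher in EVs, with 5 to 93 counts in each of 5 EV libraries against 0 in each of 5 serum libraries (edgeR, adjusted p = 0.0138). With 0 in serum, the row was kept by the count filter through its EV libraries alone, so it could only come out as higher in EVs. The call was 1 among 26 tested rows, against 23 of 768 names (2.99%). Of the same 768 names DESeq2 called 7.03% and limma-voom 17.7%, with 1 and 5 of the 26 rows. At an unadjusted p under 0.05 it was also 1 row, against 107 names (13.9%). Taking 3 counts in each serum library as the limit that counting error allows a 0, the mean TMM-scaled level in EVs was 6.26 times that limit. This is no lower bound of the difference, since zeros were shared by sets of libraries and the spread between libraries did not enter it. When the counts of both miR-377-5p rows were summed, the log2 fold change was 1.54 and did not pass (adjusted p = 0.455), and the second row alone had 1.20 (SE 0.839, adjusted p = 0.575). The fit with libraries of at least 100000 counts alone did not call the first row (edgeR, adjusted p = 0.1299, 2 EV and 4 serum libraries). Nor did the fit with the letter of the title as a block (edgeR, adjusted p = 0.335). These fits called no name at all (0 of 1040 and 0 of 768).

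The other rows before surgery did not pass. miR-410-5p had 95, 25, 80, 98 and 26 counts in EVs and 0, 0, 2, 37 and 0 in serum (log2 fold change 2.53, SE 1.31), and it passed without serum D (edgeR, adjusted p = 0.00864). miR-758-3p had 15, 13, 56, 50 and 50 counts in EVs and 1, 0, 0, 0 and 14 in serum (2.45, SE 1.42), and it passed without serum E (edgeR, adjusted p = 0.0138). Without that library, serum held 2 counts of miR-410-5p and 1 of miR-758-3p. The count filter then kept each row through its EV libraries alone, so it could only come out as higher in EVs. These fits called 2 of 26 rows against 89 of 816 names (10.9%), and 2 of 27 rows against 56 of 838 names (6.68%). Values below 0 included miR-370-5p (−2.82, SE 1.34) and miR-485-5p (−1.34, SE 0.758). For miR-127-3p (−0.96, SE 0.748) and miR-432-5p (−0.52, SE 0.584) the sign depended on TMM scaling, since library totals gave 0.17 and 1.08. miR-889-5p had 0.72 (SE 0.477) and miR-370-3p 0.095 (SE 0.588). By sign, 17 rows were higher and 9 lower in EVs (65.4% higher, against 62.9% of all names), and the median log2 fold change was 0.49 against 0.35 for all names. Under library totals these medians were 1.38 and 1.04. The 8 red blood cell miRNAs, all above 0 in both groups, took 43.7% ± 17.3 of counts in serum (21.3% to 68.0%) and 27.9% ± 16.9 in EVs (16.1% to 57.5%), and their part in these values was not tested.

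After surgery, no name of the region passed between EVs and serum. Of 26 tested rows, 0 were called (edgeR, smallest adjusted p = 0.3405), where 0 of 747 names were (0%). DESeq2 called 41 and limma-voom 40 of these names, 0 of them in the region. At an unadjusted p under 0.05 it was 1 row, miR-485-5p (0.0196), against 60 names (8.03%). miR-485-5p had 175, 106 and 538.7 CPM in EVs D to F against 1485, 832 and 183 CPM in serum D to F (log2 fold change −2.94, SE 0.984), and EVs F lay above serum F. Values above 0 included the second miR-377-5p row (4.15, SE 1.86), miR-889-5p (1.75, SE 0.748) and miR-668-3p (1.18, SE 0.664). Values below 0 included miR-370-5p (−2.27, SE 1.88) and miR-409-3p (−0.95, SE 0.791). For miR-432-5p (−0.54, SE 0.767) and miR-370-3p (−0.36, SE 0.560) the sign depended on TMM scaling, since library totals gave 0.49 and 0.82. The median log2 fold change was 0.16, against 0.30 for all names. Under library totals it was 1.72, where that of all names had also moved up by over 1. The red blood cell list took 39.8% ± 13.96 of counts in serum and 24.6% ± 3.99 in EVs, and its part in these values was not tested.

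That count rested on serum D after surgery. Without it, 9 of 31 tested rows passed, against 251 of 843 names (29.8%): the rows miR-323b-5p, miR-329-5p, miR-376a-5p, miR-433-3p, miR-758-3p, miR-410-5p, miR-136-3p and the second miR-377-5p row as higher in EVs and miR-409-5p as lower (edgeR, adjusted p = 0.0321 to 0.0420). The 8 higher rows were listed at 0 in serum E and F, the 2 serum libraries left, which share their zeros, and miR-409-5p was listed at 0 in all 3 EV libraries. The share of rows called was near that of all names.

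No difference between the change in EVs and the change in serum passed. Of 37 rows tested over all 16 libraries, 0 were called (edgeR, smallest adjusted p = 0.416), where 0 of 1018 names were (0%). DESeq2 called 5 and limma-voom 0 of these names, 0 of them in the region. At an unadjusted p under 0.05 there were 3 rows against 85 names (8.35%). These were miR-323b-5p, miR-136-3p and miR-409-5p, each with a group listed at 0, so no size is given. miR-323b-5p had 2, 0, 18, 68 and 13 counts in serum before and 0 in all 3 after surgery, while its EV counts were 31, 11, 21, 37 and 30 before and 21, 52 and 23 after. miR-409-5p went the other way, with 0, 12 and 56 counts in serum and 0 in all 3 EV libraries after surgery. For miR-127-3p the difference of the log2 fold changes was 2.15 (SE 1.17), for miR-889-5p 1.07 (SE 0.797), for the second miR-377-5p row 2.97 (SE 1.78), for miR-370-3p −0.38 (SE 0.839) and for miR-432-5p 0.15 (SE 0.993; −0.60 under library totals). The first miR-377-5p row and miR-337-5p were below 0 and also had a group listed at 0, so no size is given. The median over the rows was −0.23, against 0.26 for all names, and under library totals these were −0.21 and 0.48.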

How the data were processed

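Small RNA libraries of 16 sheep serum and serum EV samples were analysed. Per the labels' protocols, EVs came from a size-exclusion column and 1 ng of RNA entered a QIAseq miRNA library. The authors deposited whole-number counts for each miRNA or piRNA name. The submitters' processing notes list bcl2fastq (version 2.20.0.422) and hg19, a human build; the aligner, the counter and any collapsing of molecular identifiers were not stated. Depth was 65537 to 639207 counts per library. Groups came from the titles. The groups of a comparison were fitted over all names by edgeR 4.0.16 (R 4.3.3), with TMM factors, the quasi-likelihood test, filterByExpr at a minimum count of 10 and no covariates. Benjamini-Hochberg adjustment ran over all names tested (threshold 0.05), after which the region's rows were read out. The fit was tested on simulated data without shared zeros, which does not show what it can find in these rows. Rows of 1 name were kept apart. Libraries shared zeros where the phi coefficient exceeded 0.8. Named rows were the 12 highest by mean share, those past the threshold, and the 3 of smallest p per direction and comparison, with folds for the last 2 kinds and the 4 highest; others were chosen after their values were seen. Alternatives were DESeq2 1.42.0, limma-voom (limma 3.58.1), RLE factors, library totals, other filters, robust dispersion, 1 fit of all libraries, the letter as a block, and each library left out. Robust dispersion was run first and replaced by the tool's defaults before its results for these rows were seen. The members and lists were chosen with earlier results of these data known.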

Additional observations from a re-analysis of the deposited data

Results flagged for a closer look

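In groups of 5, a library was noted where its gap to the nearest other exceeded 0.710 of the group's range (Dixon's 95% critical value). Of 48 group and name pairs looked at, 15 met this. The critical value is for single tests of normal values, while these shares are skewed and the pairs share libraries. A row at 0 in 4 of 5 libraries meets it whatever its count, so no rate by chance is given. Serum D before surgery, one of the 5 shallow libraries, was the highest for 9 of them: the summed share of the region (1.44% of counts), miR-889-5p (0.162%), miR-299-5p (0.122%), miR-323b-5p (0.0883%), miR-487b-5p (0.0727%), miR-668-3p (0.0585%), miR-136-3p (0.0572%), miR-410-5p (0.0481%) and miR-127-3p (0.0247%). EVs A before surgery were highest for miR-410-5p (0.1399%) and miR-487a-5p (0.0884%). Letter E before surgery was highest for miR-758-3p in EVs (0.0585%) and in serum (0.00898%). Serum B before surgery was highest for miR-1193 (0.00181%) and miR-409-5p (0.000543%), both at 0 in the other 4 libraries.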

How the results depend on the processing

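Calls of rows of the region stayed at 0 under every alternative run in serum after against before surgery, in EVs after against before and in the interaction. Before surgery, the 1 row called between EVs and serum became 5 with limma-voom (adding miR-410-5p, miR-758-3p, miR-329-5p and miR-370-5p) and 0 with a minimum count of 50 or among names above 0 in every compared library, both of which leave that row out, and with the letter as a replicate block, in libraries of at least 100000 counts and with rows of 1 name summed, the last 2 chosen after seeing the data; robust dispersion, also added, changed none of these counts. With the block the first miR-377-5p row had an adjusted p of 0.335 (edgeR). With each library left out, 1 to 2 rows were called before and 0 to 9 after surgery. The counts of 2 came from fits that called 10.9% and 6.68% of all names, and that of 9 from a fit that called 29.8%. The main fits took the letters as names only. Same-letter serum and EV libraries did not deviate together (correlations −0.173 to 0.181 before surgery), and among these only C correlated best with its own letter. Between libraries before and after surgery, D correlated best with its own letter in serum (0.291) and in EVs (0.76), and E did not (0.0551 and 0.381). The median log2 fold change after surgery between EVs and serum moved from 0.16 to 1.72 under library totals. Without the red blood cell names as denominator the summed share in serum after surgery was 0.647%, and among names above 0 in all libraries 0.255%, outside the small spread of that group. For arms, 2 of 4 hairpins had more 5p counts with the stricter minimum.

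Of 935 values of 45 single-row results, 44 turned in sign, none of them past the threshold. In serum after surgery, miR-370-3p was −0.0615 under RLE factors, −0.0612 with DESeq2, −0.92 under library totals, −0.17 with a minimum count of 50, −0.0101 among names above 0 and −0.41 with the block, and −0.18 to 0.25 with each library left out. There miR-432-5p was −0.18 in the deeper libraries and −0.53 to 0.77 with each library left out, and miR-494-3p −0.94 to 0.12. In EVs after surgery, miR-432-5p was −0.42 under library totals and −0.54 to 0.54 leaving libraries out, miR-487a-5p 0.0908 with limma-voom, and with the block the second miR-377-5p row was −0.51 and miR-889-5p −0.26 (−0.19 to 0.99 leaving libraries out). In the deeper libraries the second miR-377-5p row was −0.0351 and miR-370-3p 0.60. Between EVs and serum before surgery, miR-127-3p was 0.17 and miR-432-5p 1.08 under library totals, and miR-370-3p −1.05 in the deeper libraries and −0.20 to 0.30 leaving libraries out. After surgery, library totals gave 0.82 for miR-370-3p and 0.49 for miR-432-5p, which was −1.25 to 0.12 leaving libraries out. In the interaction, miR-432-5p was −0.0119 with RLE factors, −0.0098 with DESeq2, −0.60 under library totals, −0.26 with limma-voom, −0.17 among names above 0, −0.22 with the block and −0.61 to 0.80 leaving libraries out. miR-370-3p was 0.37 in the deeper libraries, miR-337-5p −5.26 to 1.77 leaving libraries out and the summed miR-377-5p rows 2.65. The cause of these changes was not tested.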
